A study of Arabidopsis thaliana with 6 samples.

Results

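A set of 9 genes for NAC transcription factors that switch secondary wall formation on or hold it back was followed in siliques, the seed pods of Arabidopsis thaliana. They were chosen by locus: NST1 (AT2G46770), NST2 (AT3G61910), NST3 (AT1G32770), SND2 (AT4G28500), SND3 (AT1G28470), VND6 (AT5G62380), VND7 (AT1G71930), VNI2 (AT5G13180) and XND1 (AT5G64530). All 9 loci were found among the 27628 identifiers of the deposited table, and 7 of the 9 passed the filter on low counts. RNA was sequenced from 3 silique libraries labelled shp1 shp2 mrpl1 and from 3 libraries of wild type (WT) plants, 1 RNA-seq library per sample. The plants of both groups grew on agar medium with sucrose under long days and received no treatment. The labels name no alleles, silique stage or number of plants, and do not say whether a group's libraries came from separate plants. The p-values therefore cover the spread among these libraries alone, which may be technical.

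Secondary walls are laid down inside the primary wall of fibres, vessels and some fruit cells, and consist mainly of cellulose, xylan and lignin. NST and VND proteins act as master switches: the NST genes serve fibres and other non-vessel cells, and the VND genes serve xylem vessels. They turn on a second tier of regulators, including SND2, SND3 and many MYB factors, which act on the enzyme genes of the wall. In the Arabidopsis silique, NST1 and NST3 are known for the lignified layer of the valves and NST1 for the lignified cells of the valve margin, where the pod opens. SHP1 and SHP2 are MADS-box factors that specify the valve margin.

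The 3 NST genes are close relatives. Their coding sequences in the TAIR10.1 RefSeq annotation were 70.5% identical between NST1 and NST2, 60.7% between NST1 and NST3 and 59.3% between NST2 and NST3. Identity here and in the next sentence is the share of all alignment columns, gaps included. SND2 and SND3 were 61.1% identical, and VND6 and VND7 58.6%. The stretch of 120 coding bases below lies in the part that encodes the N-terminal NAC domain, which binds DNA. It covers coding bases 106 to 225 of NST1 and NST3 and 91 to 210 of NST2, on the coding strand, 5′ to 3′. Capitals mark bases that differ from NST1, of which there are 17 in NST2 and 20 in NST3. It is shown because it holds the longest run of bases shared between any members' transcripts, 28 bases in NST1 and NST2, which bears on whether reads can be assigned to 1 of them.
NST1: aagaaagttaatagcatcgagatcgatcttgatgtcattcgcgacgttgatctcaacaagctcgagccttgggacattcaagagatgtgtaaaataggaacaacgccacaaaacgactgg
NST2: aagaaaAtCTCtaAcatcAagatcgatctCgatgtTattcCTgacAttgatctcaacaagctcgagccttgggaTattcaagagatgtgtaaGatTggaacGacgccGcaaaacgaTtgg
NST3: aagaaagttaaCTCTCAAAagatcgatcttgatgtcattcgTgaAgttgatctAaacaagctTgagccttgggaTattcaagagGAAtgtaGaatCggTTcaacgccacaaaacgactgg
No member shared a 50-base window with another member. NST1 lies on chr2:19220725-19222916, NST2 on chr3:22929006-22930456 and NST3 on chr1:11865229-11867154, all on the minus strand of TAIR10.1. SND2 lies on chr4:14082660-14084553, SND3 on chr1:10010124-10012258, VND6 on chr5:25050152-25052054, VND7 on chr1:27074702-27077991, VNI2 on chr5:4196256-4197940 and XND1 on chr5:25794957-25797030, all on the plus strand. VNI2 shares 306 exon bases, and VND6 77, with an annotated gene on the opposite strand. The sources used here do not say whether the counting used strand, so the counts of these 2 genes may include reads of the other gene. The authors' build was not given either, and these coordinates are those of the reference annotation.

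The libraries held between 17857873 and 20957661 estimated counts in the group labelled shp1 shp2 mrpl1 and between 19969915 and 21603816 in WT. Of 20827 genes tested with edgeR's quasi-likelihood test, 1018 were called higher and 847 lower in the libraries labelled shp1 shp2 mrpl1 at a Benjamini-Hochberg adjusted p under 0.05. The genes of the genotype fitted the label in part. SHP1 had 26.9, 31.5 and 28.4 CPM (counts scaled to library size, edgeR's value after TMM scaling) in the libraries labelled shp1 shp2 mrpl1, against 42.3, 37.5 and 43.5 CPM in WT (log2 fold change -0.51, SE 0.0874, adjusted p = 0.00242). SHP2 had 106.2 ± 3.79 CPM in the libraries labelled shp1 shp2 mrpl1 and 107.1 ± 2.86 CPM in WT (SD, n = 3 each; edgeR adjusted p = 0.937), and MRPL1 (AT2G42710) had 17.1 ± 1.05 CPM in the libraries labelled shp1 shp2 mrpl1 and 14.5 ± 1.35 CPM in WT (SD, n = 3 each; edgeR adjusted p = 0.172). SHP2 and MRPL1 therefore did not show a loss of transcript counts, and every direction below is that of the libraries as labelled. A gene on the opposite strand overlaps SHP2 by 727 exon bases and SHP1 by 24. Of the tissue markers, the fruit gene STK was present at 132.7 CPM in the libraries labelled shp1 shp2 mrpl1 and 124.6 CPM in WT, while of the root and anther lists CASP1 of the root endodermis and A9 of the anther tapetum were at or near 0 in all 6 libraries. Other markers of these lists were present. The root marker SCR averaged 24.7 CPM in the libraries labelled shp1 shp2 mrpl1 and 30.1 CPM in WT, and SMB 2.00 and 2.70 CPM in those groups. The pollen and anther markers TUA1, PGA4 and VGD1 averaged 32.0, 15.9 and 13.4 CPM in the libraries labelled shp1 shp2 mrpl1, and 29.3, 10.4 and 8.77 CPM in WT.

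Of the 7 members tested, 4 (NST1, NST2, NST3 and SND2) were called lower in the libraries labelled shp1 shp2 mrpl1, and 0 were called higher. Over all genes tested, 4.07% were called lower and 4.89% higher. The other 3, SND3, XND1 and VNI2, did not pass the test. In 6 of the 7 tested members all 3 libraries labelled shp1 shp2 mrpl1 were below all 3 WT libraries, against 12.3% of all genes tested. In the remaining member, VNI2, all 3 were above, against 13.7% of all genes tested. The median log2 fold change was -0.56 over the 7 members tested and -0.00 over all genes tested. In whole siliques, fewer cells of a type and less RNA per cell cannot be told apart.

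**Figure D1:**
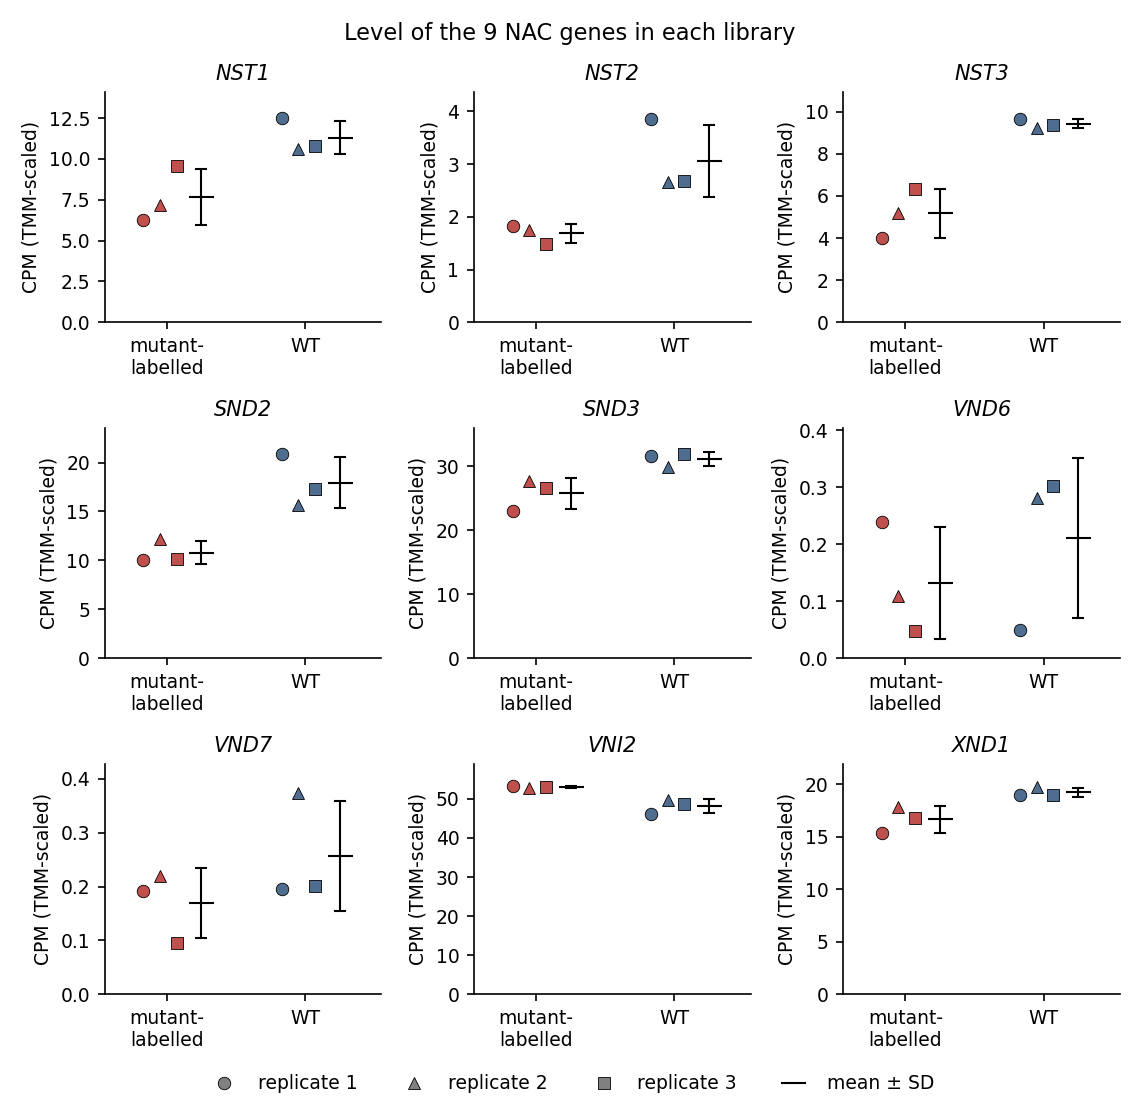
Level of each of the 9 NAC genes in every library, in CPM after TMM scaling, with the libraries labelled shp1 shp2 mrpl1 (mutant-labelled) left of WT; points are libraries and bars are group means with SD. NST1, NST2, NST3 and SND2 show separate groups with the shp1 shp2 mrpl1 points low, VNI2 shows its shp1 shp2 mrpl1 points between 52.7 and 53.2 CPM above WT, and VND6 and VND7 stay under 0.4 CPM.

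Among the NST switches, NST3 (also NAC012 or SND1), a main switch of fibre walls, had 3.98, 5.20 and 6.31 CPM in the libraries labelled shp1 shp2 mrpl1, against 9.66, 9.22 and 9.39 CPM in WT. The WT libraries lay close together, while the libraries labelled shp1 shp2 mrpl1 spread widely and the highest of them stayed below the lowest WT library. The log2 fold change was -0.87 (SE 0.149, adjusted p = 0.00242), which put NST3 at 54.8% of its WT level. The reads behind these levels numbered 83, 95 and 132 counts in the libraries labelled shp1 shp2 mrpl1 and 198, 197 and 186 in WT.

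NST1, the NST gene of the valve margin, had 6.24, 7.18 and 9.56 CPM in the libraries labelled shp1 shp2 mrpl1, against 12.5, 10.6 and 10.8 CPM in WT. Its replicate 3 labelled shp1 shp2 mrpl1 came close to the lowest WT library without reaching it, and the first WT library was the highest of all. The log2 fold change was -0.56 (SE 0.147, edgeR adjusted p = 0.0310), or 67.8% of the WT level. This call was lost when any of 4 single libraries was left out: the adjusted p was 0.0711 without replicate 1 and 0.121 without replicate 2 of the libraries labelled shp1 shp2 mrpl1, and 0.0513 without replicate 2 and 0.0846 without replicate 3 of WT. Over all 15 alternative settings the adjusted p ran between 0.000973 and 0.121, and the log2 fold change between -0.76 and -0.35.

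NST2 (NAC066), which acts with NST1 in the anther wall, was the lowest of the 3. It had 1.82, 1.75 and 1.48 CPM in the libraries labelled shp1 shp2 mrpl1, against 3.85, 2.67 and 2.68 CPM in WT. The libraries labelled shp1 shp2 mrpl1 lay together below all WT libraries, and the first WT library stood above the rest. The log2 fold change was -0.86 (SE 0.216, edgeR adjusted p = 0.0243), or 55.0% of the WT level, on 38, 32 and 31 counts in the libraries labelled shp1 shp2 mrpl1 and 79, 57 and 53 in WT. The adjusted p was 0.0691 without replicate 2 and 0.125 without replicate 3 of the libraries labelled shp1 shp2 mrpl1, and 0.0616 without replicate 1 of WT. Over the 15 alternatives it ran between 0.00308 and 0.125, while the log2 fold change stayed between -0.96 and -0.66. NST3 and SND2, in contrast, were called lower under every one of the 15 alternatives.

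Since NST1 and NST3 can stand in for each other in fibres, the NST genes were also summed per transcript length. The sum was 8.83, 10.3 and 12.6 CPM per kilobase in the libraries labelled shp1 shp2 mrpl1, against 19.1, 16.4 and 16.7 in WT. The groups could not overlap in this sum, since they did not overlap in any of the 3 genes. NST1 made up 51.0%, 50.2% and 54.7% of this sum in the libraries labelled shp1 shp2 mrpl1, against 47.4%, 46.7% and 46.8% in WT. The share of NST3 was 32.3%, 36.1% and 35.8% in the libraries labelled shp1 shp2 mrpl1, against 36.3%, 40.2% and 40.3% in WT, so that here the groups were separated by less than 1 percentage point. The share of NST2 overlapped between the groups, at 16.6%, 13.7% and 9.46% in the libraries labelled shp1 shp2 mrpl1 and 16.3%, 13.1% and 12.9% in WT.

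**Figure D2:**
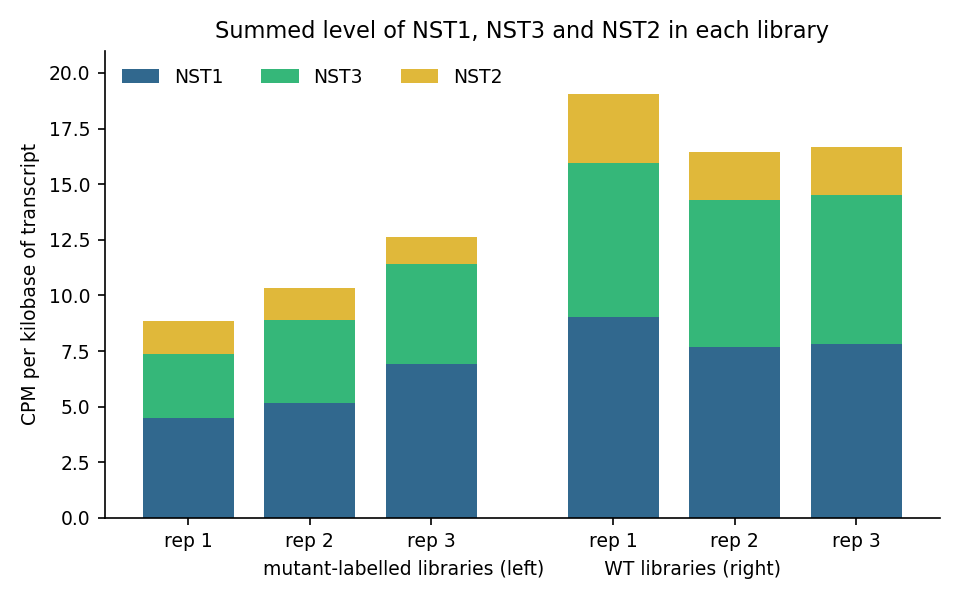
Summed level of NST1, NST2 and NST3 in each library in CPM per kilobase of transcript, stacked by gene, with the libraries labelled shp1 shp2 mrpl1 left of WT. The highest sum labelled shp1 shp2 mrpl1, 12.6, lies below the lowest WT sum, 16.4, and NST1 is the largest part in every library. The separation of the sums follows from that of each gene.

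A ratio of 2 genes within a library does not depend on the scaling between libraries. The log2 ratio of NST3 to NST1 counts was -0.57 ± 0.0949 in the libraries labelled shp1 shp2 mrpl1 and -0.26 ± 0.0964 in WT (SD, n = 3 each), a difference of -0.31. The exact two-sided permutation p was 0.1, the smallest that 3 against 3 libraries can give, and 0.5 after Benjamini-Hochberg adjustment over the 5 ratios computed. The log2 ratio of SND2 to NST3 differed by 0.16 (exact permutation p = 0.5, adjusted 0.7), with 1.08 ± 0.349 in the libraries labelled shp1 shp2 mrpl1 and 0.92 ± 0.174 in WT (SD, n = 3 each). None of the 5 ratios could pass the threshold in this design.

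Of the second-tier NAC regulators, SND2 (NAC073), which acts downstream of NST3 on wall genes, had 10.1, 12.2 and 10.1 CPM in the libraries labelled shp1 shp2 mrpl1, against 20.8, 15.7 and 17.3 CPM in WT. The groups were well apart, and the spread was wider in WT. The log2 fold change was -0.74 (SE 0.123, edgeR adjusted p = 0.00193), or 60.0% of the WT level. Its relative SND3 (NAC010), also downstream of NST3, had 23.0, 27.6 and 26.5 CPM in the libraries labelled shp1 shp2 mrpl1, against 31.6, 29.8 and 31.8 CPM in WT. These groups did not overlap either, but the log2 fold change of -0.27 (SE 0.0863) did not pass the test over all genes (edgeR adjusted p = 0.0694). With counts corrected for transcript length SND3 was called lower, at an adjusted p of 0.00457. Over the alternatives its adjusted p ran between 0.00457 and 0.238.

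The vessel switches VND6 and VND7 were close to absent from the counts. VND7, the switch of protoxylem vessels, had 4, 4 and 2 counts in the libraries labelled shp1 shp2 mrpl1 and 4, 8 and 4 counts in WT. VND6, the switch of metaxylem vessels, had 5, 2 and 1 counts in the libraries labelled shp1 shp2 mrpl1 and 1, 6 and 6 counts in WT. The groups overlapped for both, and both fell under the filter and were not tested. The summed VND7 counts gave a ratio of 0.642 to WT, with a 95% exact counting interval of 0.260 to 1.50. The ratio for VND6 was 0.632, with an interval of 0.227 to 1.65. At this depth a change of the size seen in NST3 was not detectable in either gene, and the intervals cover counting error only. Of the related VND1 to VND5, 3 were tested (VND3, VND4 and VND5) and 0 were called. These gained no call in any of the 15 alternatives. The 1 call in this list without replicate 2 of WT fell to VND1 or VND2, which were under the filter in the fit reported. VND4 averaged 0.486 ± 0.0590 CPM in the libraries labelled shp1 shp2 mrpl1 and 0.747 ± 0.200 CPM in WT (SD, n = 3 each; log2 fold change -0.62, edgeR adjusted p = 0.344). VND5 averaged 1.11 ± 0.252 CPM in the libraries labelled shp1 shp2 mrpl1 and 1.54 ± 0.207 CPM in WT (SD, n = 3 each; log2 fold change -0.48, edgeR adjusted p = 0.316). VND3 completes the 3, with a log2 fold change of -0.82 and an adjusted p of 0.246. In these 3 genes all libraries labelled shp1 shp2 mrpl1 were below all WT libraries, as in 12.3% of all genes tested. Their counts were low, between 6 and 35 per library. VND2, under the filter and named after its values were seen, had 4, 3 and 4 counts in the libraries labelled shp1 shp2 mrpl1 and 20, 9 and 10 counts in WT, again without overlap. Fitted without the filter, its adjusted p was 0.0488 with edgeR and 0.118 with DESeq2.

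VNI2 (NAC083) and XND1 act against the switches. VNI2 binds VND7 and represses its targets, and XND1 holds back the formation of xylem vessels. XND1 had 15.4, 17.9 and 16.8 CPM in the libraries labelled shp1 shp2 mrpl1, against 19.0, 19.7 and 19.0 CPM in WT, and the groups did not overlap. Its log2 fold change of -0.21 (SE 0.0894) did not pass the test (edgeR adjusted p = 0.192), and it was called lower in 1 of the 15 alternatives, the correction for transcript length (adjusted p = 0.0468; range over the alternatives 0.0468 to 0.416). VNI2 had 53.2, 52.7 and 53.0 CPM in the libraries labelled shp1 shp2 mrpl1, against 46.2, 49.8 and 48.7 CPM in WT. Its libraries labelled shp1 shp2 mrpl1 lay within 1 CPM of each other and above every WT library, with a log2 fold change of 0.13 (SE 0.0694) that did not pass the test (edgeR adjusted p = 0.288). It was called in none of the 15 alternatives. Against VND7, the log2 ratio of VNI2 differed by 0.68 between the groups and that of XND1 by 0.34, with exact permutation p of 0.2 and 0.6, on VND7 counts of 8 or fewer per library.

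**Figure D3:**
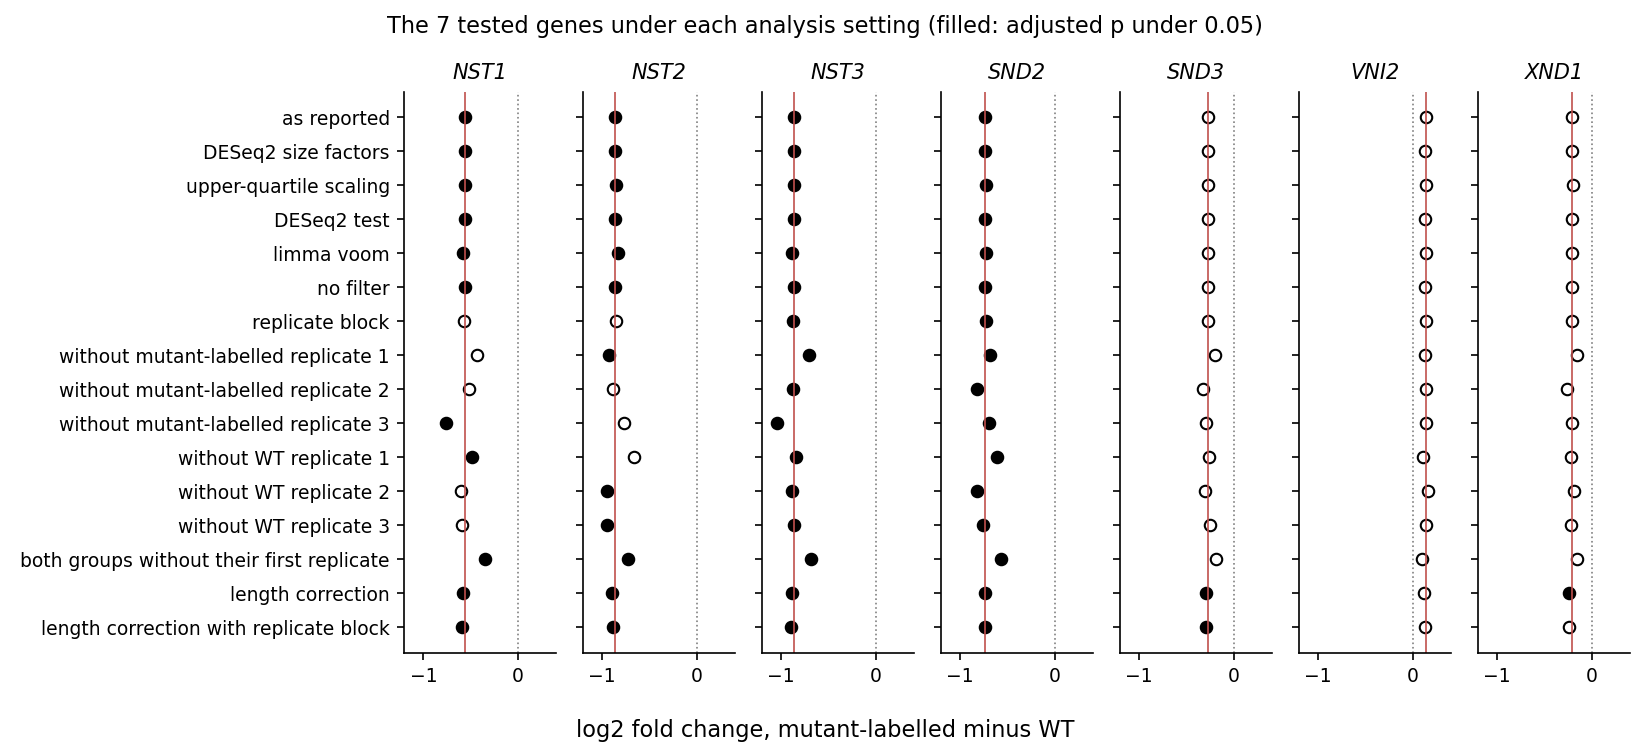
Log2 fold change (shp1 shp2 mrpl1 minus WT) of each tested NAC gene under the main edgeR fit and the 15 alternative settings; filled points passed an adjusted p of 0.05, open points did not, and the solid line is the value reported. NST3 and SND2 are filled throughout, NST1 and NST2 lose their call in 5 and 4 settings, and VNI2 is the one gene on the positive side, between 0.10 and 0.16.

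Per kilobase of transcript the group means of the 9 genes had the same order in both groups. VNI2 was highest, at 35.1 ± 0.168 CPM per kilobase in the libraries labelled shp1 shp2 mrpl1 and 32.0 ± 1.20 in WT (SD, n = 3 each, here and below). SND3 followed with 17.5 ± 1.63 CPM per kilobase in the libraries labelled shp1 shp2 mrpl1 and 21.1 ± 0.752 in WT, then XND1 with 12.8 ± 0.968 in the libraries labelled shp1 shp2 mrpl1 and 14.8 ± 0.326 in WT. SND2 had 6.92 ± 0.762 CPM per kilobase in the libraries labelled shp1 shp2 mrpl1 and 11.5 ± 1.69 in WT. Below it stood NST1 with 5.53 ± 1.24 CPM per kilobase in the libraries labelled shp1 shp2 mrpl1 and 8.17 ± 0.742 in WT, and NST3 with 3.70 ± 0.834 in the libraries labelled shp1 shp2 mrpl1 and 6.75 ± 0.157 in WT. In the libraries labelled shp1 shp2 mrpl1 the spread of NST1 overlapped those of SND2 above it and NST3 below it. NST2 stood at 1.36 ± 0.145 CPM per kilobase in the libraries labelled shp1 shp2 mrpl1 and 2.47 ± 0.550 in WT. The vessel switches came last and could not be ordered: VND7 had 0.113 ± 0.0436 CPM per kilobase and VND6 0.0948 ± 0.0702 in the libraries labelled shp1 shp2 mrpl1, against 0.173 ± 0.0683 and 0.151 ± 0.101 in WT. The transcripts of VNI2, SND3 and XND1, the 3 that did not pass the test, were thus the 3 most abundant of the set.

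The 4 members called lower were compared in the 250 bases before their annotated starts, from TAIR10.1 RefSeq, printed 5′ to 3′ on the gene's own strand. They are shown because these genes were called lower. How closely their levels followed each other was not used to pick them. Capitals mark matches on either strand to the secondary wall NAC binding element (SNBE, a degenerate 19-base element that NST and VND proteins bind) and to CATGCA, the core of the RY element bound by B3 factors of the seed. CATGCA was chosen after the sequences were seen.
NST1, chr2:19222917-19223166, minus strand: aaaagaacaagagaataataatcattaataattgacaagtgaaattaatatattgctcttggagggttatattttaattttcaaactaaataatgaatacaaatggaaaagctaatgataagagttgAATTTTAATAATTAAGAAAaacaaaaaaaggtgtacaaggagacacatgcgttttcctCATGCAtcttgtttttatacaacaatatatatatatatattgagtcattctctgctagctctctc
NST2, chr3:22930457-22930706, minus strand: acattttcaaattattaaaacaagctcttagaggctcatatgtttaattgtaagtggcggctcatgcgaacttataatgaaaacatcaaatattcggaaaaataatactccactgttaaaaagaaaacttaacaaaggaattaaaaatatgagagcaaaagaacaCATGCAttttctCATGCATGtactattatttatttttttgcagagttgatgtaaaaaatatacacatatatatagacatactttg
NST3, chr1:11867155-11867404, minus strand: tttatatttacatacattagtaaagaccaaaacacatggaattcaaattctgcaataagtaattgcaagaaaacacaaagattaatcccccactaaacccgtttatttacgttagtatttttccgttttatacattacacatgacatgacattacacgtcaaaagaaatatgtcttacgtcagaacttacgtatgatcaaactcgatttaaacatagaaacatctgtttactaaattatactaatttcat
SND2, chr4:14082410-14082659, plus strand: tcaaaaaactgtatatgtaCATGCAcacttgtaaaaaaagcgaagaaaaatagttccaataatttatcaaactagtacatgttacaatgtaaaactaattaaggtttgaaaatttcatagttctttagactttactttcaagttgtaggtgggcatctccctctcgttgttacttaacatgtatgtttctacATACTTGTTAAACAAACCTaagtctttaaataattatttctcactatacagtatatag
CATGCA began 65 bases before the start in NST1, at 85, 73 and 71 bases before it in NST2, where the last match overlaps the one before on the other strand, and 231 bases before it in SND2. In NST3 it lay 13 bases after the start, outside the printed window, and in a window of 250 bases before to 50 after the start it was in 4 of the 9 members, the 4 called lower. Of all 27418 promoters of this length 9.63% hold it. Among tested genes with a promoter it was in 15.3% of those called lower, 15.7% of those called higher and 8.90% of all, so genes that rose and genes that fell held it in similar shares. SNBE matched in 5 members, NST1, SND2, SND3, VND7 and VNI2, and in 48.1% of all promoters. The NAC core CACG was in 5 members, NST3, SND3, VND6, VND7 and VNI2, and in 52.9% of all promoters. ACGTG, the core of the abscisic acid element, was in NST3 and VNI2, where it can overlap CACG on the other strand, and in 26.8% of all promoters. The tracheary element motif CTTNAAAGCNA was in 0 members and in 0.423% of all promoters. A match is a description of the letters and not a binding site.

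Genes known to act upstream of the switches or in the same fruit tissues moved in both directions. Of 13 tested, 2 were called lower and 2 higher, with a median log2 fold change of -0.01. Besides SHP1, the valve regulator FUL was lower, at 32.7, 39.9 and 34.9 CPM in the libraries labelled shp1 shp2 mrpl1 against 46.7, 42.3 and 43.3 CPM in WT (log2 fold change -0.30, SE 0.0868, edgeR adjusted p = 0.0477). The FUL call was lost in 8 of the 15 alternatives (adjusted p between 2.9e-04 and 0.207). Among them were the DESeq2 test (0.0503), upper-quartile scaling (0.0624) and 5 of the 6 fits without 1 library. The adjusted p was 0.117 without replicate 1 and 0.200 without replicate 3 of the libraries labelled shp1 shp2 mrpl1, and 0.0585, 0.0831 and 0.131 without replicate 1, 2 or 3 of WT. SHP1 was called lower in all 15. LBD18 and LBD30, which promote vessel formation in a feedback loop with VND7, were higher. LBD18 had 15.4, 17.3 and 16.6 CPM in the libraries labelled shp1 shp2 mrpl1, against 10.2, 9.93 and 10.04 CPM in WT (log2 fold change 0.71, SE 0.0943, edgeR adjusted p = 4.0e-04). LBD30 had 52.1, 55.0 and 53.4 CPM in the libraries labelled shp1 shp2 mrpl1, against 39.6, 40.8 and 38.9 CPM in WT (log2 fold change 0.43, SE 0.0700, edgeR adjusted p = 0.00170). Both were called higher in all 15 alternatives, and were higher in all 3 libraries labelled shp1 shp2 mrpl1, in the same libraries where VND7 held 4, 4 and 2 counts. ALC, a factor of valve margin separation, did not pass the test (log2 fold change -0.02, edgeR adjusted p = 0.908), and all 952 bases of its transcript overlap a gene on the opposite strand.

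Downstream, 7 of 17 tested MYB and homeobox regulators were called lower and 0 higher, with a median log2 fold change of -0.46. The 2 others listed were under the filter. MYB103, a regulator of wall cellulose and lignin genes, had 9.07, 8.38 and 7.79 CPM in the libraries labelled shp1 shp2 mrpl1, against 17.0, 15.2 and 14.1 CPM in WT (log2 fold change -0.88, edgeR adjusted p = 2.5e-04). MYB20 had 3.60, 2.79 and 3.35 CPM in the libraries labelled shp1 shp2 mrpl1, against 6.93, 6.04 and 6.11 CPM in WT (log2 fold change -0.96, SE 0.148, edgeR adjusted p = 0.00111). In both the groups were far apart. MYB85 and MYB58, regulators of lignin genes, and MYB43 and MYB52 were lower too, with log2 fold changes of -0.61, -0.46, -0.65 and -0.54. The whole MYB58 transcript of 1273 bases overlaps a gene on the opposite strand, and its call was lost without replicate 2 of the libraries labelled shp1 shp2 mrpl1 (adjusted p = 0.0582) and without replicate 2 of WT (adjusted p = 0.0530; range over the 15 alternatives 2.4e-04 to 0.0724). The most abundant of the list, KNAT7, a homeobox repressor of wall formation, had 134.5 ± 12.7 CPM in the libraries labelled shp1 shp2 mrpl1 and 135.3 ± 5.91 CPM in WT (SD, n = 3 each; log2 fold change -0.01, edgeR adjusted p = 0.966), and MYB61 had a log2 fold change of -0.03 (adjusted p = 0.854). MYB46, a direct target of the NST and VND switches and named here after its values were seen, had 2.91 ± 0.381 CPM in the libraries labelled shp1 shp2 mrpl1 and 3.63 ± 0.322 CPM in WT (SD, n = 3 each; log2 fold change -0.32, edgeR adjusted p = 0.306).

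The list of secondary wall enzymes, which includes other wall proteins, had the most calls. Of its 18 genes 15 were lower, 0 were higher, and the median log2 fold change was -0.63. CESA4, CESA7 and CESA8, the catalytic subunits of secondary wall cellulose synthase, had log2 fold changes of -0.82, -0.71 and -0.66. CESA4 had 151.0, 127.9 and 131.7 CPM in the libraries labelled shp1 shp2 mrpl1, against 222.7, 262.3 and 239.4 CPM in WT (SE 0.0815, edgeR adjusted p = 4.2e-05). IRX15, of xylan formation, had a log2 fold change of -0.75, COBL4, which is needed for cellulose deposition, -0.69, and PARVUS, also of xylan formation, -0.62. The 3 that did not pass were IRX9 and IRX14, both xylan synthesis genes, and FLA12, an arabinogalactan protein, the last named after its values were seen. IRX9 had 55.6, 55.3 and 55.2 CPM in the libraries labelled shp1 shp2 mrpl1, against 49.8, 48.1 and 41.1 CPM in WT (log2 fold change 0.26, SE 0.0817, edgeR adjusted p = 0.0718). It was called higher in 4 of the 15 alternatives, 1 of them without replicate 1 of WT (adjusted p = 0.0179; range over the alternatives 1.9e-04 to 0.297). The log2 fold changes of IRX14 and FLA12 were -0.08 and -0.11. CESA8 shares 481 and CESA7 66 exon bases with a gene on the opposite strand, and CESA4 shares 17 with a gene on its own strand.

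**Figure D4:**
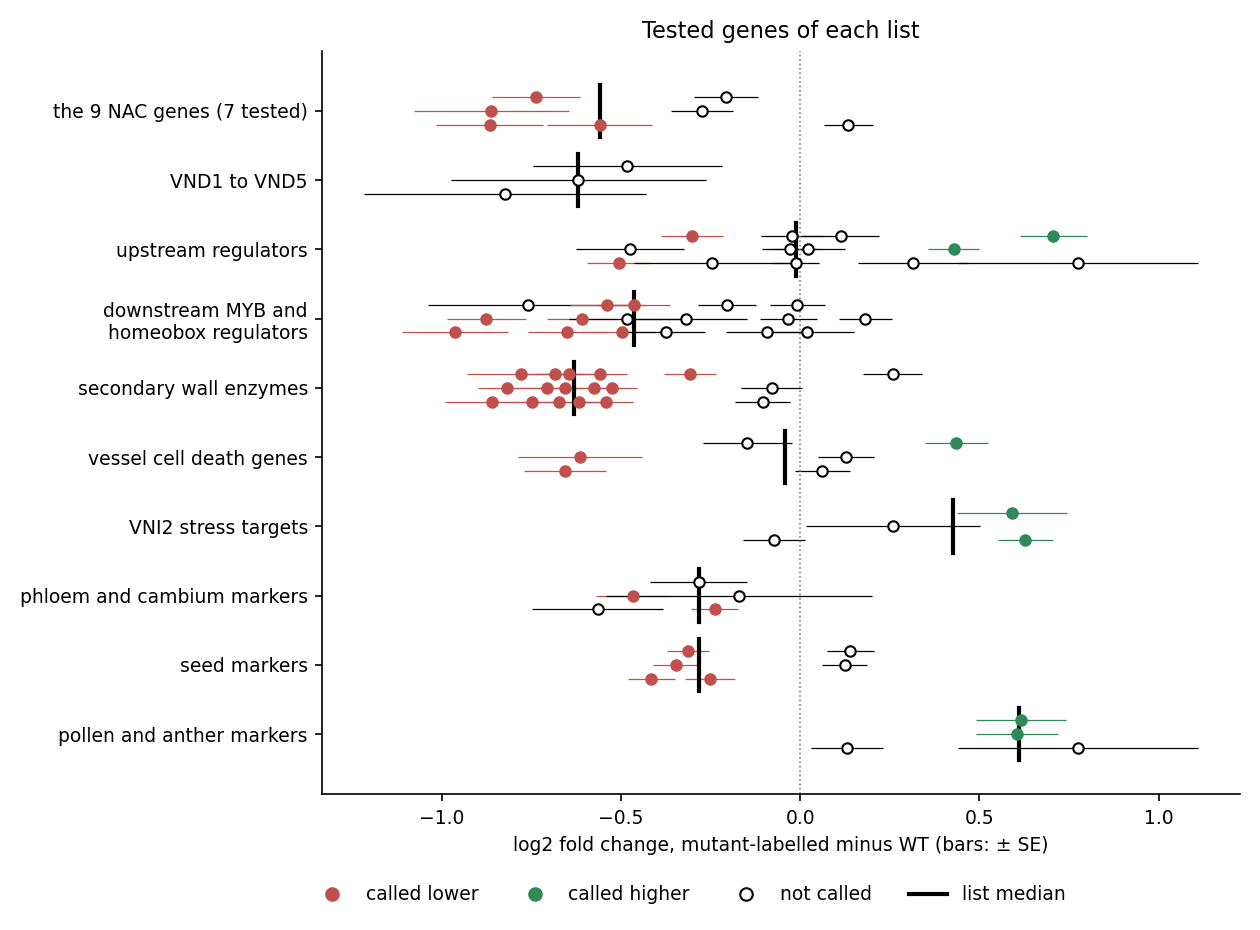
Log2 fold change (shp1 shp2 mrpl1 minus WT) of the tested NAC genes and of tested genes in lists around the switches. Lists of phloem and cambium, seed, and pollen and anther markers are shown as well. Filled points passed an edgeR adjusted p of 0.05 and open points did not. Thin bars are the SE and thick upright bars are list medians. The secondary wall enzymes, a list that includes other wall proteins, have their median at -0.63 with 15 of 18 filled below 0. The upstream regulators have theirs at -0.01 with filled points on both sides.

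The genes of vessel cell death, which VND6 and VND7 are known to turn on, were divided. Of 6 tested, XCP1 and XCP2, the xylem cysteine peptidases, were lower and BFN1, a nuclease of dying cells, was higher. XCP2 had 8.83, 8.87 and 10.2 CPM in the libraries labelled shp1 shp2 mrpl1, against 15.5, 15.7 and 12.8 CPM in WT (log2 fold change -0.66, SE 0.114, edgeR adjusted p = 0.00266). XCP1 averaged 2.77 ± 0.453 CPM in the libraries labelled shp1 shp2 mrpl1 and 4.22 ± 0.425 CPM in WT (SD, n = 3 each; log2 fold change -0.62, edgeR adjusted p = 0.0432). The XCP1 call was lost in 6 of the 15 alternatives (adjusted p between 0.00991 and 0.197), among them the DESeq2 test (0.0988). It was lost without replicate 1 (0.0874) or 3 (0.197) of the libraries labelled shp1 shp2 mrpl1 and without replicate 2 (0.164) or 3 (0.0694) of WT, while XCP2 was called lower in all 15. BFN1 had 71.7, 90.8 and 87.7 CPM in the libraries labelled shp1 shp2 mrpl1, against 63.4, 60.3 and 61.3 CPM in WT (log2 fold change 0.44, SE 0.0884, edgeR adjusted p = 0.00730). Without replicate 3 of the libraries labelled shp1 shp2 mrpl1 BFN1 was not called (adjusted p = 0.0572; range over the 15 alternatives 1.4e-12 to 0.0665). The nuclease RNS3 and the metacaspase MC9 did not pass, at log2 fold changes of 0.13 and 0.06.

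VNI2 is also known to promote stress genes in ageing leaves, and 4 of these were read. RD29B had 69.7, 65.8 and 63.8 CPM in the libraries labelled shp1 shp2 mrpl1, against 40.1, 45.9 and 42.8 CPM in WT (log2 fold change 0.63, SE 0.0768, edgeR adjusted p = 2.1e-04), with the groups far apart. COR15A had 5.90, 6.08 and 7.69 CPM in the libraries labelled shp1 shp2 mrpl1, against 4.93, 4.35 and 3.79 CPM in WT (log2 fold change 0.59, SE 0.155, edgeR adjusted p = 0.0302). RD29B was called higher in all 15 alternatives. The COR15A call was lost without replicate 2 (0.0570) or 3 (0.181) of the libraries labelled shp1 shp2 mrpl1 and without replicate 2 (0.0835) or 3 (0.138) of WT, with adjusted p between 3.2e-04 and 0.181 over the alternatives. RD29A and COR15B did not pass, at log2 fold changes of -0.07 and 0.26. COR15B shares 468 bases with a gene on the opposite strand.

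Markers of other cell types moved between the same libraries. Of 5 phloem and cambium markers, 2 were called lower, APL by 0.47 and the phloem sucrose transporter SUC2 by 0.24 on the log2 scale (edgeR adjusted p = 0.0110 and 0.0375), and 0 higher. The count of 2 rested on single libraries: it was 0 without replicate 2 of the libraries labelled shp1 shp2 mrpl1 and 0 without replicate 2 of WT, 1 without replicate 3 of either group, and 3 without replicate 1 of WT. Over the 15 alternatives the adjusted p ran between 0.00135 and 0.0729 for APL and between 2.1e-05 and 0.227 for SUC2. The summed level of the 5 markers was 248.0 to 280.1 CPM in the libraries labelled shp1 shp2 mrpl1 and 302.3 to 326.8 CPM in WT. SUC2 alone averaged 236.8 CPM in the libraries labelled shp1 shp2 mrpl1 and 279.5 CPM in WT, so this sum is mostly SUC2. Set against this sum within each library, the log2 difference was -0.63 for NST3, -0.58 for NST2, -0.47 for SND2 and -0.33 for NST1, with exact two-sided permutation p of 0.1, 0.1, 0.2 and 0.3. On the same scale it was -0.02 for SND3, 0.05 for XND1 and 0.39 for VNI2, with exact p of 0.9, 0.7 and 0.1. XND1 thereby changed sign. This scale, like the totals without seed genes given next, was chosen after seeing the data. Of 6 seed markers, the 4 storage genes CRA1, CRU3, SESA3 and OLEO1 were lower (3 of them without replicate 1 or 2 of the libraries labelled shp1 shp2 mrpl1 or any 1 WT library, when SESA3 lost its call). The seed coat genes TT10 and BAN did not pass. As a share of the TMM-scaled library size, the 6 together took 9.19% to 10.1% in the libraries labelled shp1 shp2 mrpl1 and 11.9% to 12.3% in WT. With the library totals taken without these 6 genes, the log2 differences were -0.89 for NST3, -0.84 for NST2, -0.73 for SND2, -0.58 for NST1, -0.28 for SND3, -0.21 for XND1 and 0.13 for VNI2. Of 4 pollen and anther markers tested, VGD1 and PGA4 were higher and 0 lower, with a summed level of the list of 57.7 to 65.8 CPM in the libraries labelled shp1 shp2 mrpl1 and 46.2 to 52.7 CPM in WT. Of 6 fruit markers 3 were lower (SHP1, FUL and YAB3) and 0 higher. SHP1 is a gene of the genotype, and SHP1 and FUL were already counted among the upstream regulators. The summed level of the fruit list was 315.5 to 354.4 CPM in the libraries labelled shp1 shp2 mrpl1 and 334.0 to 360.2 CPM in WT. Of 3 root markers tested none was called by edgeR. The count of 3 fruit markers was 1 with the DESeq2 test, without replicate 3 of the libraries labelled shp1 shp2 mrpl1 and without replicate 2 or 3 of WT. Of the root markers, 1 was called lower without replicate 1 of the libraries labelled shp1 shp2 mrpl1 or of WT. Their part in the levels of the NAC genes was not tested.

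Within the NAC family as a whole, a set added after the values were seen, 13 of 72 tested genes were called lower and 1 higher, with a median log2 fold change of -0.08. Without the 7 tested members, 9 of 65 were lower and 1 higher, with a median of -0.05. NAC094 had the lowest log2 fold change of these, at -1.42 (SE 0.337, edgeR adjusted p = 0.0176), and NAC038 the one called higher, at 0.64 (SE 0.0779, edgeR adjusted p = 2.1e-04). Calls on the lower side were therefore not limited to the secondary wall members. Of all genes tested, 4.07% were called lower and 4.89% higher.

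The genes whose pattern over the 6 libraries was most like that of each tested member were sought among 18144 genes by Pearson's r of log2 CPM. This is a description, since the libraries share the difference between groups. Pearson's r does not compare the size of a change. The log2 fold change was -0.10 for AT1G55680 against -0.56 for NST1 below, and 1.02 for AT3G05610 against 0.13 for VNI2. For NST3 these were AT3G57680, of the peptidase S41 family (r = 0.996), and CYP71B37, a cytochrome P450 (r = 0.995). For SND2 they were SNZ, an AP2-type transcription factor (r = 0.999), and PUB9, a U-box protein (r = 0.995). NST1 was followed by AT1G55680, of the WD40 repeat family (r = 0.993), and by the methyltransferase PRMT6 (r = 0.991). NST2 was followed by the acyltransferase PMAT2 (r = 0.993) and AT4G36820 (r = 0.992). SND3 was closest to AT2G32320 (r = 0.996), XND1 to AT1G20823 (r = 0.991) and VNI2 to AT3G05610 (r = 0.997), of the pectin methylesterase family. No member was among another's closest 2, since members were left out of the search, and between 0.347% and 1.00% of the genes compared reached an r of 0.95 with a member.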

How the data were processed

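RNA-seq libraries of siliques, 3 labelled shp1 shp2 mrpl1 and 3 WT, were grouped by the genotype in the labels. The authors deposited 1 table of estimated counts per transcript identifier, 1 column a library. Tools listed in the submitters' processing notes are HISAT2, featureCounts 1.6.3, Trimmomatic 0.39, DESeq2 and FastQC 0.11.9. Build, annotation and strand setting are not given in the sources used here. Per library, 2.95% to 3.47% of values were not whole (tolerance 1e-09), and all were rounded before testing.

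The comparison, shp1 shp2 mrpl1 minus WT, was fitted over the whole table with edgeR 4.0.16 (R 4.3.3): default expression filter (minimum count 10, total 15), TMM scaling, robust dispersion, the quasi-likelihood test with genotype as the only term, and Benjamini-Hochberg adjustment over all 20827 genes tested. The SE of a log2 fold change is its size over the root of the test's F. DESeq2 1.42.0 and limma 3.58.1 served as alternatives. Single values were compared by exact permutation tests over the 20 assignments of libraries. The ratios of NAC genes had 0.5 counts added.

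Of the 27628 identifiers, 27419 matched a TAIR10.1 RefSeq transcript, which gave lengths, overlaps and sequences. Pairwise coding identities come from global alignments, and the NST stretch from mafft 7.526. The table's depth limits genes of a few counts, and intervals cover counting error only.

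The 9 NAC genes and the lists were chosen with earlier results of these data known. All 9 were named, and of each list at most 6 called genes by smallest adjusted p plus at most 2 others by highest level, with exceptions stated.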

Additional observations from a re-analysis of the deposited data

How the results depend on the processing

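No tested NAC gene changed direction under any of the 15 alternatives of the fit (DESeq2 size factors, upper-quartile scaling, the DESeq2 test, limma voom, no filter, a replicate block, each library left out in turn, both first replicates left out, a correction for transcript length, and that correction with the block). NST3 and SND2 were lower in all of them. The number of NAC genes called lower, 4 in the edgeR fit reported, was 2 to 3 with 1 library left out, 4 without both first replicates, 6 with the length correction and 5 with the length correction and block.

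Over all genes, 847 were lower and 1018 higher. With 1 library left out these counts ran from 426 to 1468 and from 578 to 1534. Without both first replicates they were 3301 lower and 3191 higher, and with the length correction 1554 lower and 1759 higher. Genes called higher in the lists around the switches, without the marker lists, were 5 in the edgeR fit reported. They were 3 to 6 with 1 library left out and 8 without both first replicates. Of the genes called in all lists, markers included, 2 to 9 lost their call with 1 library left out. With the DESeq2 test 3 lost it, with upper-quartile scaling 2, and without both first replicates 1, where 11 others gained one. The cause was not tested. Spearman's rho between fold change and transcript length across genes, which are not independent replicates, was -0.25 as reported, -0.45 without both first replicates and 0.00 after the correction.

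With the replicate number as a block, 2 NAC genes were lower (edgeR adjusted p of 0.0926 for NST1 and 0.0610 for NST2). Outside the marker lists, 3 list genes were higher. Over all lists, markers included, 14 genes lost their call (FUL, XCP1, BFN1, COR15A, MYB58, VGD1, APL and SUC2 among them). Of all genes, 320 were lower and 475 higher. Libraries with the same number did not deviate together (r of -0.36, -0.19 and -0.12 across genes). No library correlated best with the one of its own number. These deviations were taken from group means of 3 libraries and so depend on each other. They cannot decide whether the numbers pair the libraries, and the labels state no pairing.

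VND6 and VND7, with 8 counts or fewer per library, were below what this depth can compare: without the filter edgeR gave log2 fold changes of -0.64 and -0.62 and adjusted p of 0.703 and 0.653.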
